A study of Mus musculus with 63 samples.

Results

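RNA was sequenced from the pituitaries of young female mice after 8 weeks of CUMS and from unstressed controls of the same set. CUMS, chronic unpredictable mild stress, exposes mice to mild stressors that change from day to day. The libraries were chosen by their titles, 2M-8W-Pit-CUMS and 2M-8W-Pit-Ctrl, and make up 8 of the 63 samples of the series, 4 stressed and 4 control. All mice were C57BL/6 females, and the labels name no transgene or drug. In the titles 2M stands for 2 months of age and 8W for 8 weeks of CUMS; at which point of the schedule the mice had that age is not given. Pituitary libraries of 3 further sets, 4 stressed and 4 control in each, are used for comparison: 2M-12W, 6M-8W and, last, 6M-12W. Ovaries are not analysed here. The design text pairs the 2-month mice with 8 weeks and the 6-month mice with 12 weeks, whereas the titles hold every combination, and the titles were followed. The labels give no hour of collection, no stage of the estrous cycle and no sequencing batch. They do not say that each library is a separate mouse, so the p-values measure only the spread between libraries. For the edgeR tests that spread was estimated from all 32 pituitary libraries together.

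The pituitary stands between the hypothalamus and the endocrine glands. Its corticotropes make pro-opiomelanocortin (Pomc), the precursor of ACTH, in answer to CRH and vasopressin; ACTH drives the adrenal cortex to release glucocorticoids, and these feed back through the glucocorticoid receptor to lower Pomc. Pituitary cells, like those of most tissues, also run a molecular circadian clock: BMAL1 (gene Arntl) with CLOCK or NPAS2 binds E-boxes and switches on the Per, Cry, Nr1d (REV-ERB), Bhlhe40/41 and Ciart repressors and the D-box factors Dbp, Tef and Hlf, while REV-ERB proteins in turn repress Arntl and Npas2. The levels of these transcripts change over the day.

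Total gene counts ran from 14879376 to 18982624 in CUMS libraries and from 15071582 to 19493436 in control libraries (two-sided exact permutation test, p = 0.314). As a check of the tissue label, the hormone genes Prl, Gh and Pomc were abundant in every library, whereas the 7 ovarian marker genes with enough counts to test summed to 12.7 to 14.6 CPM (counts scaled to the depth of the library) in CUMS libraries and 7.87 to 10.9 CPM in control libraries. The part of the ovarian markers in the results was not tested. Mitochondrially encoded genes took 5.35, 3.24, 3.17 and 3.55% of the counts in CUMS libraries 1 to 4 and 3.22, 2.92, 2.87 and 3.001% in control libraries 1 to 4 (two-sided exact permutation test, p = 0.0571, where 0.0286 is the smallest p that 4 against 4 allows). CUMS library 1 and control library 1 stood apart from the other 6 on the first principal components of the log2 CPM, and 42 of the 72 genes called below were also called with both left out; a described gene that was not has its value without them beside it.

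The starts of some genes that passed the test below are shown first. They were chosen because they hold a clock motif, so they do not stand for all the genes that passed. Matches in other pairings of motif and direction, given below, are not shown. The sequences run 5′ to 3′ on the strand of the gene, from 250 bases before to 50 after its annotated start, and come from RefSeq for the GRCm38.p6 assembly; a promoter was matched for 55 of the 72 genes that passed the test below. Capitals mark matches to any of 3 clock motifs, searched on both strands: the E-box CACGTG, which reads the same on both strands, the D-box TTATGNAA and the REV-ERB/ROR element TAGGTCA. Ciart, Cplx3 and Tspan4 are shown for E-boxes in genes that were higher, Per3 and Cyp2a5 for D-boxes in genes that were higher, and Arntl and Leo1 for the REV-ERB/ROR element in genes that were lower. No marked matches overlap one another. Arntl and Tspan4 have 2 annotated starts each in the table, and the window shown is the one that holds a match; the other window holds none.
Ciart, chr3:95882179-95882478, minus strand: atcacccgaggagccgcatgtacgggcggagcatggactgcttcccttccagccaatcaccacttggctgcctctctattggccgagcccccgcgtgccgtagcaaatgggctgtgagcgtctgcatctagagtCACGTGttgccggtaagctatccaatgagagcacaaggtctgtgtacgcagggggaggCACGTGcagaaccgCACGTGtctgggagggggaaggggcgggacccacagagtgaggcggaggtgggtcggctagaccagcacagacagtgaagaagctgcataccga
Cplx3, chr9:57606232-57606531, minus strand: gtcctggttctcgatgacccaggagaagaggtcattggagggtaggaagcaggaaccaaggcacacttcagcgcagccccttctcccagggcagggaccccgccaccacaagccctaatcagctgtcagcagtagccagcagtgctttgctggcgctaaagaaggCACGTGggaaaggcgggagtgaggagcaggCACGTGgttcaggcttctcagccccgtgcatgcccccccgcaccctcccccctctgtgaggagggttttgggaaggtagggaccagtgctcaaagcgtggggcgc
Tspan4, chr7:141476130-141476429, plus strand: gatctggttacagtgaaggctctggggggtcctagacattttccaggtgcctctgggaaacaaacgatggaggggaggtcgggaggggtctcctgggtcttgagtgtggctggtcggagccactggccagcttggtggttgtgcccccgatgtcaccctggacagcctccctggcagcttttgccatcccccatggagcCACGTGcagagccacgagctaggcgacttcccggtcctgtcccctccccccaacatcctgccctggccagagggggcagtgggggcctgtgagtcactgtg
Per3, chr4:151044616-151044915, minus strand: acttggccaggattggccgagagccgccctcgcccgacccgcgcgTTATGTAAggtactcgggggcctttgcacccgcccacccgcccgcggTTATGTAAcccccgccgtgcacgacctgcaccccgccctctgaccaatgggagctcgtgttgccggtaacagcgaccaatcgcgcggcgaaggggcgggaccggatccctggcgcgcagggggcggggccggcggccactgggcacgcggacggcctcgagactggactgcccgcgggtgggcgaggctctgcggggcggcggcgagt
Cyp2a5, chr7:26835089-26835388, plus strand: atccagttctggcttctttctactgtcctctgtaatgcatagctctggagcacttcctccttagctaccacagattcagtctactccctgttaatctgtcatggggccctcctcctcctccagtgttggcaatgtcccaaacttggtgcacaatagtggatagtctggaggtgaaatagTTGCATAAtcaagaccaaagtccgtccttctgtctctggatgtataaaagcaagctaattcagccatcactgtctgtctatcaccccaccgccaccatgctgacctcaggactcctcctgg
Arntl, chr7:113207261-113207560, plus strand: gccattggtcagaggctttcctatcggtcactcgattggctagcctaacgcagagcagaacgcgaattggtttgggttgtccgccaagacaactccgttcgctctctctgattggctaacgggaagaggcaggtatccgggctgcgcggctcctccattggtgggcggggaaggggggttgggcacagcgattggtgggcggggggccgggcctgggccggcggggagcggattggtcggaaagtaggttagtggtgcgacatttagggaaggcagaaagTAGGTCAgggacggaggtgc
Leo1, chr9:75441274-75441573, plus strand: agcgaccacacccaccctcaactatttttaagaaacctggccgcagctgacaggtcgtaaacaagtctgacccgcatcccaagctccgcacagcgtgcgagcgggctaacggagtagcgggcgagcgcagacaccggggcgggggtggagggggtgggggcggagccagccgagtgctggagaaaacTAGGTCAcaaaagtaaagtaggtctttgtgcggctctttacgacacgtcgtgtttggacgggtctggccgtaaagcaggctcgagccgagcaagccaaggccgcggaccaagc

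Counted from the start site, the E-boxes of Ciart begin at -116, -58 and -44, those of Cplx3 at -85 and -55 and that of Tspan4 at -51. The D-boxes of Per3 begin at -205 and -158, and that of Cyp2a5, on the minus strand, at -71. The REV-ERB/ROR element begins at 30 in Arntl and at -63 in Leo1. A gene with several starts was counted once, if any of its windows held the motif. Of the 34 genes that rose and had a promoter in the table, 7 (20.6%) held an E-box and 4 (11.8%) a D-box, beside 8.09% and 3.99% of the 27025 genes in the table. Of the 21 such genes that fell, 2 (9.52%) held a REV-ERB/ROR element, beside 2.97% of all genes in the table. The genes in the table include some whose expression was not tested, so the shares come from unlike sets. In the other pairings of motif and direction, a REV-ERB/ROR element was held by 1 of the 34 that rose (2.94%), Glul, an E-box by 2 of the 21 that fell (9.52%), Sorl1 and Fam189a2, and a D-box by 0 of the 21. Among the 46 called genes outside the clock lists that had a promoter, 6 (13%) held an E-box, 3 (6.52%) a D-box and 2 (4.35%) a REV-ERB/ROR element. Among the 9 called clock genes with a promoter, 3 held an E-box, 1 a D-box and 1 a REV-ERB/ROR element. The windows of Pomc and of the clock genes Dbp, Nr1d1, Nr1d2 and Npas2 held none of the 3 motifs. A match says only that these letters are present in the window, and no binding was measured.

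Of 17001 genes tested, 72 passed an adjusted p of 0.05 between CUMS and control pituitaries in edgeR's quasi-likelihood test with Benjamini-Hochberg adjustment, which is 0.424% of the genes; 41 (0.241%) were higher and 31 (0.182%) lower after CUMS. At an unadjusted p under 0.05 there were 1315 (7.73%). All 72 were protein coding. Their log2 fold changes spanned 0.24 to 3.94 in size, and 24 exceeded 1, of which 20 were higher. In 69 of the 72 the 4 CUMS values lay wholly above or below the 4 control values, as they did in 677 of all genes tested (3.98%); the exceptions were Tsku, Pcdhga2 and Col19a1. Circadian clock genes made up 10 of the 72, and 18 of the 72 passed under every one of 15 other treatments of the data, namely Arntl, Npas2, Ciart, Dbp, Tef, Per2, Per3, Nr1d1, Nr1d2, Bhlhe41, Cyp2a5, Scd3, Col4a1, Col4a2, Aplnr, Tspan4, Leo1 and Mettl7a1. Most of the treatments, 8 or more, kept 50 of the 72. Among those that passed under fewer were Pomc, Dio1, Gstm1, Glul, Cd93, Cdh13, Cdkn2b, Pcdhga2, Egln3, Spop and Sorl1, beside genes not described here. The count of 72 was 41 without CUMS library 2 and 45 without control library 4. Values are given in the order of libraries 1 to 4, and a value with ± after them is the log2 fold change of CUMS over control with its SE. In bulk RNA, fewer cells of a type and less RNA per cell cannot be told apart.

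The clock genes that passed divided by their role in the loop. Its activators Arntl and Npas2 were lower in CUMS pituitaries, and 6 of its repressors and 2 of its D-box output factors were higher. The division was not complete at an unadjusted edgeR p under 0.05. There 1 activator was higher and 4 lower, 7 repressors were higher and 1 lower, and 3 output factors were higher and 1 lower. The hour of collection is not given, and its part in these changes was not tested. Of the 7 activators 2 fell and 0 rose, of the 10 repressors 6 rose and 0 fell, and of the 4 output factors 2 rose and 0 fell; the median log2 fold changes were -0.32, 1.0 and 0.86, beside -0.01 over all genes tested. None of the 5 kinases and ubiquitin ligases that act on clock proteins passed (0 at an unadjusted p under 0.05 and 0 in DESeq2), with log2 fold changes between -0.11 and 0.09. All 10 calls also held with CUMS library 1 and control library 1 left out.

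Arntl (ENSMUSG00000055116; chromosome 7, 113207465 to 113314122 on the plus strand of GRCm38), which encodes BMAL1, had 15.8, 18.7, 20.6 and 20.6 CPM in CUMS and 56.0, 48.1, 51.4 and 47.1 CPM in control libraries. Npas2 (ENSMUSG00000026077; chromosome 1, 39193731 to 39363236), which encodes a partner of BMAL1, had 2.38, 1.45, 1.11 and 1.96 CPM in CUMS and 10.1, 12.8, 8.61 and 8.74 CPM in control libraries. For both genes every CUMS library lay below every control library, by a log2 fold change of -1.42 ± 0.12 for Arntl (SE; edgeR, adjusted p = 1.50e-08) and -2.55 ± 0.24 for Npas2 (edgeR, adjusted p = 1.17e-07). The other partner of BMAL1, Clock, had 58.9, 51.9, 53.0 and 49.8 CPM in CUMS and 118, 58.6, 87.6 and 60.7 CPM in control libraries; control libraries 1 and 3 were far above the rest, and the change did not pass (-0.60 ± 0.19, edgeR, adjusted p = 0.266). The nuclear receptors Rora and Rorb, which oppose REV-ERB proteins, and Arntl2 did not pass either.

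Among the repressors, Ciart (ENSMUSG00000038550; chromosome 3, 95878503 to 95882251 on the minus strand), which binds and inhibits the BMAL1 dimer, changed most in log2 fold. It had 9.98, 8.71, 8.16 and 8.10 CPM in CUMS and 1.13, 1.81, 1.17 and 1.69 CPM in control libraries, a log2 fold change of 2.59 ± 0.27 (edgeR, adjusted p = 5.11e-07). Nr1d1, which encodes REV-ERBα, had 266, 200.2, 186 and 224 CPM in CUMS and 71.5, 108, 98.5 and 106 CPM in control libraries. Nr1d2, which encodes REV-ERBβ, had 273, 247, 232 and 244 CPM in CUMS and 117, 143, 115 and 129 CPM in control libraries. Their log2 fold changes were 1.19 ± 0.14 and 0.99 ± 0.10 (edgeR, adjusted p = 2.68e-06 and 5.26e-07), and the groups did not overlap for either gene. The library kit's strand handling is not stated, and several of the called clock genes overlap another annotated gene: on the opposite strand Nr1d1 overlaps Thra, Dbp overlaps Sphk2, Ciart overlaps C920021L13Rik, Tef overlaps Gm17597 and Bhlhe41 overlaps RP24-238C11.4, and on the same strand Per3 overlaps Camta1. Reads of such pairs may not be told apart.

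Of the period genes, Per2 had 57.3, 57.7, 54.3 and 55.7 CPM in CUMS and 30.7, 18.4, 20.1 and 19.4 CPM in control libraries (1.34 ± 0.17, edgeR, adjusted p = 2.07e-05), and its CUMS values lay within 4 CPM of one another. Per3 had 238, 179, 178 and 183 CPM in CUMS and 111, 109, 74.4 and 88.8 CPM in control libraries (1.02 ± 0.16, edgeR, adjusted p = 0.000421). Per1, which answers glucocorticoids as well as the clock, averaged 143 CPM in CUMS libraries and 106 CPM in control libraries and did not pass (log2 fold change 0.43 ± 0.28, edgeR, adjusted p = 0.791). Bhlhe41 (DEC2), a repressor of E-box genes, had 76.9, 82.9, 90.1 and 85.3 CPM in CUMS and 32.3, 43.5, 42.2 and 41.2 CPM in control libraries (1.07 ± 0.12, edgeR, adjusted p = 2.68e-06). The cryptochromes Cry1 and Cry2 did not pass: Cry1 had 20.7, 28.5, 24.4 and 24.2 CPM in CUMS and 58.5, 28.6, 29.9 and 29.2 CPM in control libraries (log2 fold change -0.58 ± 0.20, edgeR, adjusted p = 0.346), so its CUMS values lay just below those of 3 controls and far below control library 1.

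Of the PAR-bZIP factors that bind D-boxes, Dbp (ENSMUSG00000059824; chromosome 7, 45705088 to 45710155 on the plus strand) had 185, 143, 126 and 149 CPM in CUMS and 21.6, 32.8, 25.1 and 39.0 CPM in control libraries, a log2 fold change of 2.35 ± 0.21 (edgeR, adjusted p = 4.22e-08). Tef had 216, 174, 178 and 170.0 CPM in CUMS and 76.3, 90.5, 83.4 and 77.4 CPM in control libraries (1.17 ± 0.14, edgeR, adjusted p = 3.56e-06). Hlf, the last of the family, had 73.0, 84.5, 65.2 and 74.1 CPM in CUMS and 57.8, 48.6, 42.4 and 54.1 CPM in control libraries; its groups did not overlap, yet it did not pass (0.55 ± 0.20, edgeR, adjusted p = 0.378). Their competitor Nfil3 (E4BP4) had 18.8, 17.4, 13.8 and 18.8 CPM in CUMS and 31.2, 41.0, 21.5 and 23.5 CPM in control libraries, with every CUMS library below every control, and did not pass (-0.77 ± 0.25, edgeR, adjusted p = 0.267). Per length of transcript, Nr1d1 and Nr1d2 stood highest among the clock genes named here, at mean levels of 62.7 and 42.6 FPKM (fragments scaled to transcript length and depth, as deposited by the authors) in CUMS libraries and 26.8 and 21.1 FPKM in control libraries. Dbp stood at 30.0 FPKM in CUMS libraries, above the 6.51 FPKM of Arntl, and at 5.77 FPKM in control libraries, below the 17.1 FPKM of Arntl.

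**Figure D1:**
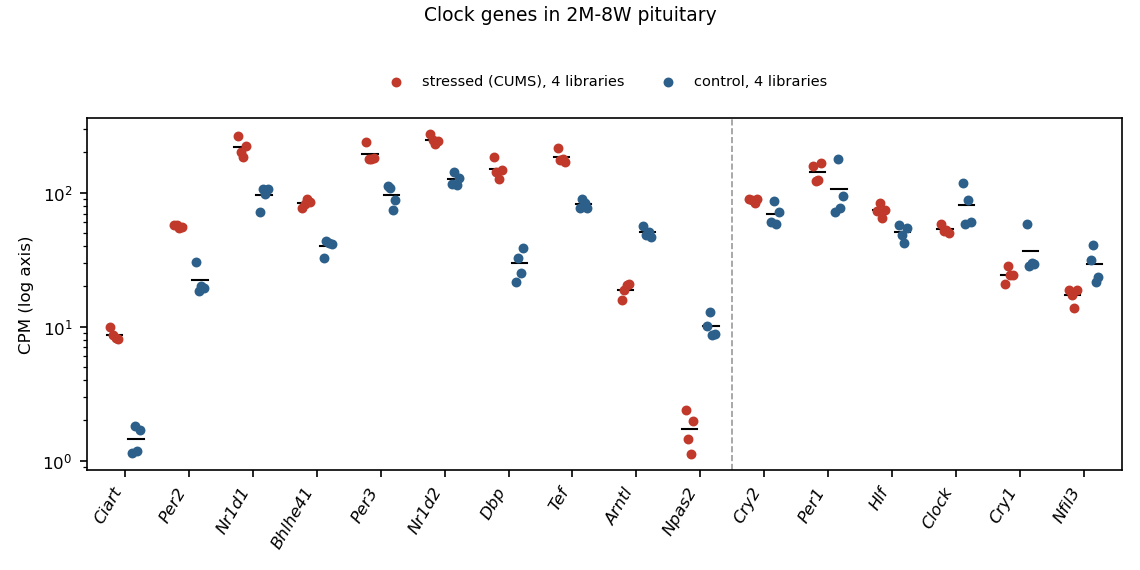
Level of 16 clock genes in each library (CPM, log axis), with CUMS libraries left of control libraries. Points are libraries, black lines are group means (n = 4 each), and genes left of the dashed line passed the test. Arntl and Npas2 lie lower in every CUMS library than in any control library, and Ciart, Dbp, Tef, Per2, Per3, Nr1d1, Nr1d2 and Bhlhe41 lie higher.

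Outside the clock lists, Usp2 and Por, which are known to follow the clock in liver, were higher as well; they were put together after their values were seen. Usp2, a deubiquitinase of clock proteins, had 63.4, 76.7, 53.8 and 57.0 CPM in CUMS and 50.7, 37.4, 27.3 and 32.8 CPM in control libraries (0.76 ± 0.15, edgeR, adjusted p = 0.00768). Por, the reductase that feeds electrons to microsomal cytochromes P450, had 125, 142, 134 and 147 CPM in CUMS and 96.3, 123, 112 and 112 CPM in control libraries (0.30 ± 0.07, edgeR, adjusted p = 0.0259). For both genes all CUMS libraries lay above all controls. Tsku, a secreted leucine-rich repeat protein, had 21.1, 24.5, 18.5 and 12.7 CPM in CUMS and 12.8, 7.71, 5.08 and 3.996 CPM in control libraries (1.36 ± 0.23, edgeR, adjusted p = 0.00161); control library 1 reached the level of CUMS library 4.

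Pomc was higher in CUMS pituitaries, whereas the other 5 corticotrope markers did not pass. Of all 6, 4 had an unadjusted edgeR p under 0.05, all higher (Pomc, Crhr1, Tbx19 and Avpr1b), the median log2 fold change was 0.35, and in the mean of the other sets 4 rose and 0 fell. Pomc (ENSMUSG00000020660; chromosome 12, 3954951 to 3960618 on the plus strand) had 35434, 25448, 17540.3 and 28192 CPM in CUMS and 8628, 16759.8, 14424 and 10628 CPM in control libraries, a log2 fold change of 1.08 ± 0.24 (edgeR, adjusted p = 0.0302). The groups did not overlap, but CUMS library 3 lay close to control library 2, and control library 1 was the lowest of the 8. Pomc alone took 3.60, 2.56, 1.74 and 2.77% of all gene counts in CUMS libraries, against 0.862, 1.66, 1.38 and 1.04% in control libraries, and the authors' FPKM averaged 26514 in CUMS and 12251 in control libraries. The call held under 5 of 15 other treatments of the data; with CUMS library 1 and control library 1 left out the log2 fold change was 0.77 (edgeR, adjusted p = 0.331), and over all 15 the adjusted p ran from 0.0011 to 0.331.

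The receptors through which corticotropes are driven were a little above their control means without passing. The CRH receptor Crhr1 had 21.7, 24.1, 24.0 and 18.9 CPM in CUMS and 16.8, 20.6, 14.1 and 14.8 CPM in control libraries (log2 fold change 0.42 ± 0.14, edgeR, adjusted p = 0.324). The vasopressin receptor Avpr1b had 4.36, 5.86, 4.87 and 5.10 CPM in CUMS and 4.42, 4.79, 3.41 and 2.51 CPM in control libraries (0.41 ± 0.19, edgeR, adjusted p = 0.624). Tbx19 (T-pit), the factor that switches on Pomc, had 73.8, 92.6, 86.1 and 80.7 CPM in CUMS and 65.9, 78.0, 66.0 and 61.0 CPM in control libraries (0.30 ± 0.14, edgeR, adjusted p = 0.593). These 3 sets of values overlap between the groups. The prohormone convertase Pcsk1, which cuts POMC to ACTH, had a log2 fold change of -0.06, and Neurod1 one of -0.07. Without Pomc the corticotrope list summed to 228 to 267 CPM in CUMS libraries and 220 to 229 CPM in control libraries.

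Pomc is also made by the melanotropes of the intermediate lobe. Of the 4 other melanotrope markers none passed: the log2 fold changes were 0.32 for the convertase Pcsk2, 0.25 for Oacyl, 0.19 for the lineage factor Pax7 and 0.03 for the dopamine receptor Drd2. Without Pomc that list summed to 825 to 1159 CPM in CUMS libraries and 604 to 1083 CPM in control libraries, with control library 1 the lowest. Pax7 was at 45.3, 68.1, 57.6 and 76.9 CPM in CUMS libraries and at 29.6, 76.9, 61.3 and 50.2 CPM in control libraries, so control library 1, the lowest for Pomc, was also the lowest for Pax7. The part of the intermediate lobe's share of each sample in the Pomc difference was not tested.

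The other hormone genes did not pass. Prl had 100446, 117488, 128053 and 130540.0 CPM in CUMS and 130416, 127568, 164734 and 143566 CPM in control libraries (log2 fold change -0.25 ± 0.12, edgeR, adjusted p = 0.63). Gh had 63769, 68465, 53576 and 62156 CPM in CUMS and 77983, 77423, 64979 and 84116 CPM in control libraries (-0.30 ± 0.14, edgeR, adjusted p = 0.641); every CUMS value of Gh but that of library 2 lay below all controls. The shared glycoprotein subunit Cga and the LH subunit Lhb had log2 fold changes of -0.10 and -0.16. Fshb, the FSH subunit, had 289.6, 57.5, 107 and 131 CPM in CUMS and 152, 154, 25.4 and 36.3 CPM in control libraries, a wide scatter within both groups (0.67 ± 0.62, edgeR, adjusted p = 0.899). Tshb, the TSH subunit, had a log2 fold change of 0.30 (edgeR, adjusted p = 0.741). Among the 8 gonadotrope, 5 thyrotrope, 5 somatotrope and 7 lactotrope markers 0 passed in edgeR or in DESeq2, with 1, 0, 3 and 2 at an unadjusted edgeR p under 0.05, and medians of 0.21, 0.23, -0.06 and -0.06.

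**Figure D2:**
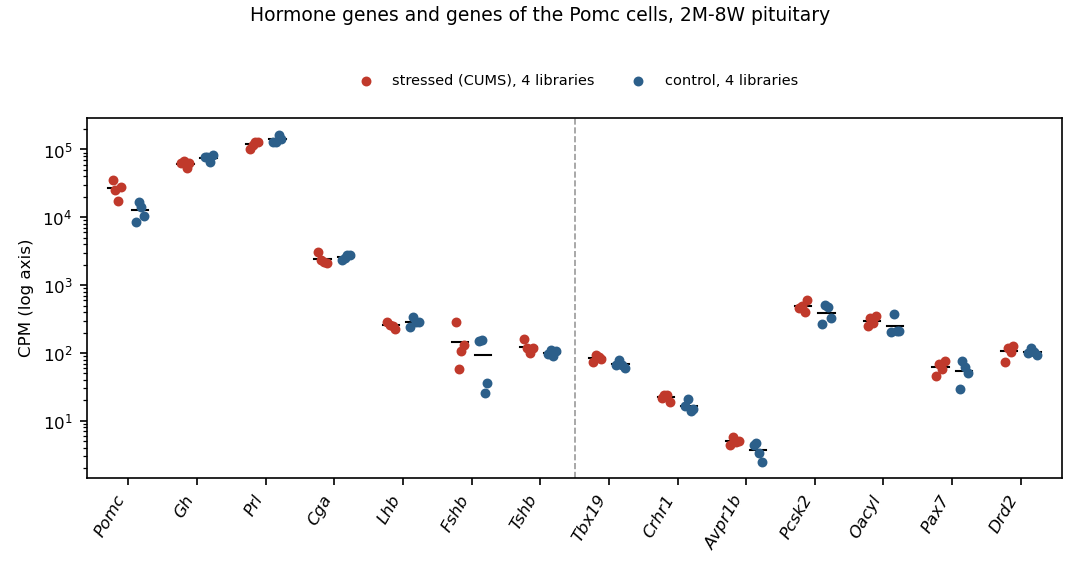
Level of hormone genes (left of the dashed line) and of other genes of the cells that make Pomc (right of it) in each library (CPM, log axis), with CUMS libraries left of control libraries. Points are libraries and black lines are group means (n = 4 each). Pomc lies higher in all 4 CUMS libraries than in the 4 controls, and the values of Prl, Fshb and Crhr1 overlap between the groups.

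Both genes of the common collagen IV and 4 further genes known from vessels were lower in CUMS pituitaries. Col4a1 and Col4a2, which encode the collagen IV chains that form the mesh of basement membranes and lie head to head on chromosome 8, both fell. Col4a1 (ENSMUSG00000031502; chromosome 8, 11198423 to 11312826 on the minus strand) had 91.1, 92.9, 96.2 and 97.2 CPM in CUMS and 158, 139, 199 and 166 CPM in control libraries (-0.81 ± 0.13, edgeR, adjusted p = 0.000643). Col4a2 (ENSMUSG00000031503; chromosome 8, 11312805 to 11449287 on the plus strand) had 72.3, 66.7, 68.4 and 64.6 CPM in CUMS and 98.5, 94.9, 127 and 110.1 CPM in control libraries (-0.66 ± 0.11, edgeR, adjusted p = 0.00181). For both collagens all CUMS libraries lay below all controls, and control library 3 was the highest; the annotated ends of the 2 genes overlap.

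Aplnr, the apelin receptor of endothelium, had 16.2, 13.5, 13.6 and 13.1 CPM in CUMS and 30.1, 20.9, 25.0 and 26.0 CPM in control libraries (-0.86 ± 0.16, edgeR, adjusted p = 0.00622). Cd93, a lectin-like receptor of endothelium and myeloid cells, had 13.4, 12.0, 10.8 and 11.4 CPM in CUMS and 18.1, 18.7, 21.6 and 17.3 CPM in control libraries (-0.67 ± 0.15, edgeR, adjusted p = 0.0328). Bcl6b, a transcriptional repressor of endothelial cells, had 8.92, 7.62, 9.06 and 6.60 CPM in CUMS and 12.4, 12.3, 11.5 and 13.9 CPM in control libraries (-0.63 ± 0.13, edgeR, adjusted p = 0.0191). All 3 lay lower in every CUMS library than in any control, but with CUMS library 1 and control library 1 left out Cd93 did not pass, with a fold of -0.75 (edgeR, adjusted p = 0.0572, within 0.00436 to 0.154 over all 15 treatments). The tetraspanin Tspan18 had 7.34, 7.92, 7.31 and 7.64 CPM in CUMS and 16.6, 11.4, 13.2 and 12.7 CPM in control libraries (-0.84 ± 0.13, edgeR, adjusted p = 0.000421). Its CUMS values lay close together, below the lowest control. These 6 genes were put together after their values were seen, and no test bears on them as a group.

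Of the 10 endothelial markers 0 passed (2 at an unadjusted edgeR p under 0.05, and 1, Pecam1, in DESeq2), 4 had folds above 0 and 6 below, and their median log2 fold change was -0.04. They summed to 438 to 537 CPM in CUMS libraries and 483 to 520 CPM in control libraries. Pecam1, an adhesion molecule of all endothelium, had 26.6, 27.8, 23.2 and 21.9 CPM in CUMS and 33.4, 29.0, 34.7 and 35.4 CPM in control libraries (-0.41 ± 0.11, edgeR, adjusted p = 0.0945). With CUMS library 1 and control library 1 left out, 9 of the 10 were below 0, with a median of -0.14. None of the 8 pericyte or 12 fibroblast markers passed in edgeR or DESeq2, with 0 and 1 at an unadjusted edgeR p under 0.05. Timp3, an inhibitor of matrix metalloproteinases, went the other way from the collagens: it had 261, 260.1, 254 and 261 CPM in CUMS and 184, 174, 202 and 194 CPM in control libraries (0.46 ± 0.10, edgeR, adjusted p = 0.0169), and it overlaps Syn3 on the opposite strand. Timp3, without CUMS library 1 and control library 1, had a fold of 0.45 (edgeR, adjusted p = 0.0879, within 0.00105 to 0.0879 over all 15 treatments).

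**Figure D3:**
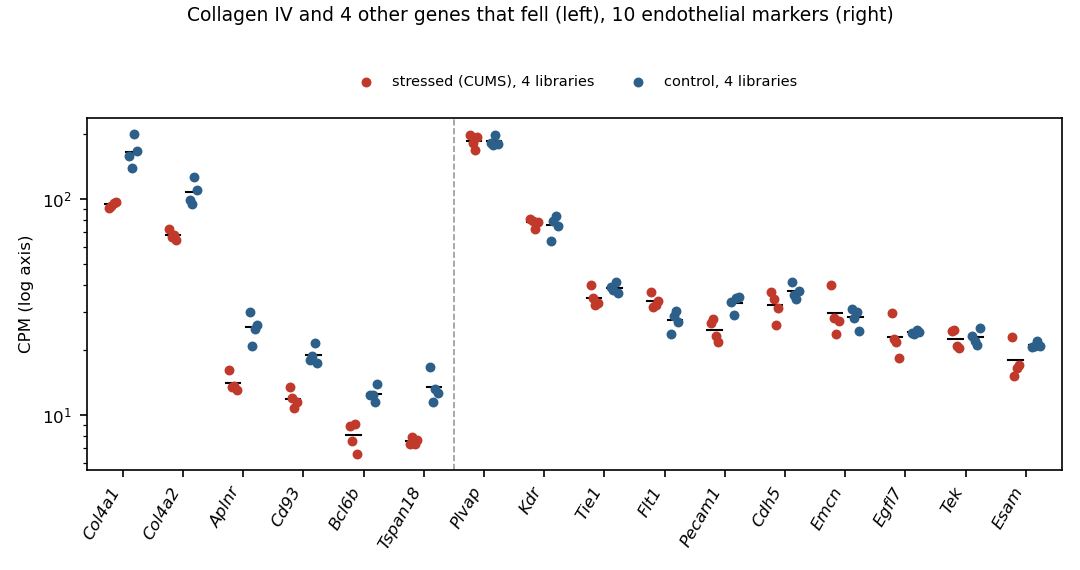
Level of 6 genes that fell (left of the dashed line) and of the 10 endothelial markers (right of it) in each library (CPM, log axis), with CUMS libraries left of control libraries. Points are libraries and black lines are group means (n = 4 each). Col4a1, Col4a2 and Aplnr lie lower in all CUMS libraries than in the controls. The endothelial marker list as a whole had a median log2 fold change of -0.04, and of -0.14 with CUMS library 1 and control library 1 left out.

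Enzymes of xenobiotic and lipid metabolism moved in both directions. Of 9 drug metabolism genes tested, 3 rose (Cyp2a5, Gstm1 and Por) and 0 fell, with a median log2 fold change of 0.23; the other 5 of the 14 listed had too few counts. Cyp2a5 (ENSMUSG00000005547; chromosome 7, 26835305 to 26843548 on the plus strand), a P450 best known from liver, had 6.15, 4.41, 4.45 and 4.57 CPM in CUMS and 0.770, 0.798, 1.12 and 0.474 CPM in control libraries. That is a log2 fold change of 2.60 ± 0.47 (edgeR, adjusted p = 0.00333) at a level of under 7 CPM, and its reads may be shared with near-identical Cyp2a genes. Gstm1, a glutathione transferase with near-copies of its own, had 219, 145, 124 and 133 CPM in CUMS and 118, 88.9, 98.5 and 111 CPM in control libraries (0.58 ± 0.13, edgeR, adjusted p = 0.0335), and with CUMS library 1 and control library 1 left out its fold was 0.43 (edgeR, adjusted p = 0.122, within 0.00377 to 0.477 over all 15 treatments). Ephx1, the microsomal epoxide hydrolase, was not in that list and rose too, with a log2 fold change of 0.44 ± 0.09 (edgeR, adjusted p = 0.0177); without the same 2 libraries its fold was 0.33 (edgeR, adjusted p = 0.229, within 0.00105 to 0.239 over all 15 treatments).

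Cyp2f2, a P450 listed among the markers of folliculostellate and stem cells, had 283, 283, 251 and 263 CPM in CUMS and 211, 169, 189 and 167 CPM in control libraries (0.55 ± 0.09, edgeR, adjusted p = 0.00161). It was the only one of that list's 9 genes to pass. Without Cyp2f2 the list summed to 249.7 to 332 CPM in CUMS libraries and 225 to 269.9 CPM in control libraries. Glul, glutamine synthetase, had 235, 261, 221 and 200.3 CPM in CUMS and 169, 188, 167 and 162 CPM in control libraries (0.42 ± 0.09, edgeR, adjusted p = 0.0301). Gpd1, the cytosolic glycerol-3-phosphate dehydrogenase, had a log2 fold change of 0.54 ± 0.11 (edgeR, adjusted p = 0.0167). Neither Glul nor Gpd1 passed without CUMS library 1 and control library 1: the folds were 0.40 (edgeR, adjusted p = 0.155, within 0.00293 to 0.254 over all 15 treatments) for Glul and 0.53 (edgeR, adjusted p = 0.0978, within 0.00111 to 0.172 over all 15 treatments) for Gpd1.

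Of 14 genes of fatty acid synthesis and desaturation, 1 fell, 0 rose and the median was -0.08. The gene that fell was Scd3, a stearoyl-CoA desaturase, with 2.71, 2.48, 2.81 and 3.59 CPM in CUMS and 7.39, 8.09, 5.197 and 8.40 CPM in control libraries (-1.33 ± 0.21, edgeR, adjusted p = 0.000428). None of 15 sterol genes passed in edgeR or in DESeq2, and 0 reached an unadjusted edgeR p under 0.05. Of 10 thyroid hormone genes tested, 1 rose and 1 fell. Dio1, the deiodinase that activates thyroxine, had 3.17, 3.14, 2.07 and 5.23 CPM in CUMS and 0.462, 1.596, 1.84 and 1.42 CPM in control libraries (1.35 ± 0.32, edgeR, adjusted p = 0.0452). Hr, a corepressor of thyroid hormone receptors, had 35.8, 41.5, 45.9 and 49.4 CPM in CUMS and 77.2, 63.9, 55.9 and 67.1 CPM in control libraries (-0.61 ± 0.11, edgeR, adjusted p = 0.00372). With CUMS library 1 and control library 1 left out, neither passed: the folds were 1.09 for Dio1 (edgeR, adjusted p = 0.195, within 0.00499 to 0.478 over all 15 treatments) and -0.45 for Hr (edgeR, adjusted p = 0.133, within 8.5e-05 to 0.198).

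Receptors and parts of the secretory machinery were called singly rather than as groups. Of 29 hypothalamic and transmitter receptors tested, 1 rose, Hrh3, and 0 fell; their median log2 fold change was 0.20. Hrh3, the histamine H3 receptor, had 3.37, 2.90, 3.55 and 3.46 CPM in CUMS and 0.821, 0.532, 1.34 and 1.83 CPM in control libraries (1.58 ± 0.27, edgeR, adjusted p = 0.00208), and every CUMS library lay above every control. Of 24 genes of hormone processing and exocytosis 0 passed in edgeR or DESeq2, with 5 at an unadjusted edgeR p under 0.05 and a median of 0.07. Outside that list, Cplx3, a complexin that clamps vesicle fusion, had 2.31, 3.204, 2.81 and 3.14 CPM in CUMS and 0.873, 0.851, 0.838 and 0.203 CPM in control libraries (2.01 ± 0.33, edgeR, adjusted p = 0.000849). Control library 4 was the lowest of the 8, and no control reached the CUMS values. Sytl4, the granule protein granuphilin, had 154, 158, 141 and 138 CPM in CUMS and 184, 190.3, 199 and 199 CPM in control libraries (-0.38 ± 0.07, edgeR, adjusted p = 0.00329). Syt13, a synaptotagmin, had 127, 149, 157 and 176 CPM in CUMS and 203, 209, 188 and 184 CPM in control libraries (-0.37 ± 0.07, edgeR, adjusted p = 0.0133). The complexin rose at a level near 3 CPM, while the last pair fell at levels above 100 CPM. Syt13 did not pass without CUMS library 1 and control library 1, with a fold of -0.27 (edgeR, adjusted p = 0.17, within 0.00124 to 0.456 over all 15 treatments).

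Several genes of no list also passed. Cdh13, the GPI-anchored T-cadherin, had 17.5, 18.1, 15.2 and 30.4 CPM in CUMS and 5.13, 11.2, 11.7 and 6.84 CPM in control libraries (1.22 ± 0.27, edgeR, adjusted p = 0.0276), with CUMS library 4 the highest. Rasd2 (Rhes), a Ras-like GTPase, had 12.8, 14.1, 12.9 and 17.9 CPM in CUMS and 4.47, 8.51, 6.03 and 5.28 CPM in control libraries (1.24 ± 0.19, edgeR, adjusted p = 0.000373). The tetraspanin Tspan4 had 10.97, 11.6, 11.7 and 13.6 CPM in CUMS and 4.88, 6.54, 5.08 and 5.82 CPM in control libraries (1.10 ± 0.14, edgeR, adjusted p = 3.38e-05); it overlaps Chid1 on the opposite strand. All 3 were higher in every CUMS library than in any control. Cdh13 did not pass without CUMS library 1 and control library 1, with a fold of 1.10 (edgeR, adjusted p = 0.135, within 0.00126 to 0.276 over all 15 treatments). Asphd2 had 20.5, 21.7, 17.3 and 22.3 CPM in CUMS and 38.9, 49.2, 37.5 and 30.3 CPM in control libraries (-0.93 ± 0.17, edgeR, adjusted p = 0.0038). Fstl4, a follistatin-like protein, had 3.77, 5.26, 6.83 and 6.53 CPM in CUMS and 9.86, 10.2, 10.3 and 13.7 CPM in control libraries (-0.97 ± 0.14, edgeR, adjusted p = 0.000238). Asphd2 and Fstl4 were lower in every CUMS library than in any control.

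Leo1, a subunit of the PAF1 elongation complex, had 28.7, 29.2, 28.6 and 28.7 CPM in CUMS and 44.3, 39.9, 46.8 and 43.1 CPM in control libraries (-0.60 ± 0.08, edgeR, adjusted p = 2.33e-05). Its 4 CUMS values spanned less than 1 CPM, and it is the gene with the REV-ERB/ROR element shown above that lies outside the clock lists. Cdkn2b (p15), an inhibitor of cyclin-dependent kinases, had 4.10, 5.74, 6.14 and 4.77 CPM in CUMS and 8.21, 8.14, 9.89 and 8.87 CPM in control libraries (-0.75 ± 0.17, edgeR, adjusted p = 0.0301). Hmgn2, a nucleosome-binding protein with many near-copies in the genome, had 90.9, 72.1, 74.1 and 55.1 CPM in CUMS and 52.1, 45.2, 43.9 and 52.4 CPM in control libraries (0.59 ± 0.11, edgeR, adjusted p = 0.00522). Mettl7a1, a methyltransferase-like protein, had 155, 149.8, 143 and 131 CPM in CUMS and 93.5, 98.8, 87.5 and 88.9 CPM in control libraries (0.65 ± 0.09, edgeR, adjusted p = 8.70e-05). The groups were separate for each of these 4 genes. Cdkn2b did not pass without CUMS library 1 and control library 1, with a fold of -0.68 (edgeR, adjusted p = 0.164, within 0.00523 to 0.216 over all 15 treatments).

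Named genes include some whose values are uncertain. Beside those given above, overlaps with another annotated gene are on the opposite strand for Usp2 (Rnf26), Por (Gm43091), Hrh3 (Gm17180), Cyp2f2 (Gm15883), Glul (Teddm2), Gpd1 (Gm16537), Leo1 (A130057D12Rik), Fstl4 (Gm11186) and Sorl1 (Gm16214), and on the same strand for Ephx1 (Gm36961). Pcdhga2 had the most negative fold (-3.94, edgeR, adjusted p = 0.0285), but its values were 10.8, 9.67, 10.9 and 10.3 CPM in CUMS and 106, 262, 10.6 and 263 CPM in control libraries, so control library 3 lay at the CUMS level, and it shares exons with the other protocadherin gamma genes. Col19a1, Egln3, Spop and Sorl1 fall outside the rule for named genes and were chosen after their values were seen, since they were among the 9 called genes that did not pass in the other sets. Col19a1 had 4.76, 2.30, 0.847 and 3.59 CPM in CUMS and 0.719, 1.01, 0.391 and 0.271 CPM in control libraries (2.20 ± 0.41, edgeR, adjusted p = 0.00524), and its groups overlapped. Egln3, a prolyl hydroxylase of hypoxia-inducible factor, had a log2 fold change of 0.54 ± 0.12 (edgeR, adjusted p = 0.0389). Spop, a ubiquitin ligase adaptor, and Sorl1, a sorting receptor, had the smallest folds called, at -0.24 and -0.29 (edgeR, adjusted p = 0.0272 and 0.0382). None of these 5 genes passed with CUMS library 1 and control library 1 left out. Pcdhga2 then had a fold of -4.12 (edgeR, adjusted p = 0.11, within 0.000239 to 0.198 over all 15 treatments) and Col19a1 one of 1.94 (edgeR, adjusted p = 0.0856, within 4.68e-05 to 0.291 over all 15 treatments). The folds were 0.41 (edgeR, adjusted p = 0.294, within 0.0167 to 0.443 over all 15 treatments) for Egln3, -0.22 (edgeR, adjusted p = 0.133, within 0.00123 to 0.456 over all 15 treatments) for Spop and -0.22 (edgeR, adjusted p = 0.294, within 0.00705 to 0.448 over all 15 treatments) for Sorl1.

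The listed genes that answer glucocorticoids did not pass as single genes in edgeR in CUMS pituitaries. That list leaves out Pomc, described above. Of 22 such genes 0 passed in edgeR, 7 had an unadjusted p under 0.05 (6 higher and 1 lower), and 2, Mt1 and Mt2, passed in DESeq2; 17 folds lay above 0 and the median was 0.13. The metallothionein Mt2 had 67.6, 46.5, 48.2 and 41.4 CPM in CUMS and 28.7, 34.9, 41.0 and 35.6 CPM in control libraries (0.54 ± 0.13, edgeR, adjusted p = 0.073). Mt1 had a log2 fold change of 0.50 ± 0.12 (edgeR, adjusted p = 0.073). Fkbp5, the co-chaperone of the glucocorticoid receptor, had 71.2, 86.3, 82.8 and 65.5 CPM in CUMS and 88.3, 55.5, 50.01 and 53.2 CPM in control libraries; control library 1 was the highest of the 8 and the fold did not pass (0.31 ± 0.14, edgeR, adjusted p = 0.573). With CUMS library 1 and control library 1 left out, Fkbp5 was the 1 gene of the list that passed, with a log2 fold change of 0.57 (edgeR, adjusted p = 0.0396, within 0.0334 to 0.913 over all 15 treatments). The receptor itself, Nr3c1, had 89.4, 94.4, 80.1 and 81.6 CPM in CUMS and 62.6, 45.6, 64.5 and 67.5 CPM in control libraries (0.52 ± 0.24, edgeR, adjusted p = 0.612), and every CUMS library lay above every control.

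Cell division genes lay below 0 without passing. Of 24 genes 23 had folds below 0, with a median of -0.47; 0 passed in edgeR, 7 had an unadjusted p under 0.05, all lower, and 1, Mki67, passed in DESeq2. Mki67, the proliferation marker, had 1.59, 1.45, 2.01 and 2.94 CPM in CUMS and 5.29, 2.61, 7.32 and 5.49 CPM in control libraries (-1.37 ± 0.39, edgeR, adjusted p = 0.161). The list summed to 146 to 175 CPM in CUMS libraries and 176 to 203 CPM in control libraries. With CUMS library 1 and control library 1 left out the median was -0.40 and 23 of 24 stayed below 0.

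All 16 interferon-induced genes had folds below 0, with a median of -0.47; 0 passed in edgeR or DESeq2, and 3 had an unadjusted edgeR p under 0.05. They summed to 162 to 201 CPM in CUMS libraries and 204 to 274 CPM in control libraries. Rsad2 (viperin) had 8.26, 6.47, 5.67 and 6.34 CPM in CUMS and 8.11, 10.8, 14.1 and 16.7 CPM in control libraries (-0.89 ± 0.28, edgeR, adjusted p = 0.253). With CUMS library 1 and control library 1 left out all 16 were below 0 and the median was -0.55. Of 14 macrophage and leukocyte markers 12 had folds below 0, with a median of -0.21; 0 passed in edgeR or DESeq2 and 3 had an unadjusted edgeR p under 0.05.

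The heat shock and immediate early lists turned when CUMS library 1 and control library 1 were left out. All 13 heat shock genes had folds below 0 (median -0.20), and without those libraries 8 of the 13 were above 0 (median 0.13). The 20 immediate early genes summed to 1710 to 4492 CPM in CUMS libraries and 840 to 6649 CPM in control libraries, and their median was 0.05 with and -0.37 without the pair. Neither list had a gene that passed in edgeR or DESeq2, or at an unadjusted edgeR p under 0.05. All 13 mitochondrially encoded genes had folds above 0 (median 0.31, against 0.14 without the 2 libraries), with 0 passing in edgeR or DESeq2 and 1 at an unadjusted edgeR p under 0.05. Their part in the other differences was not tested.

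**Figure D4:**
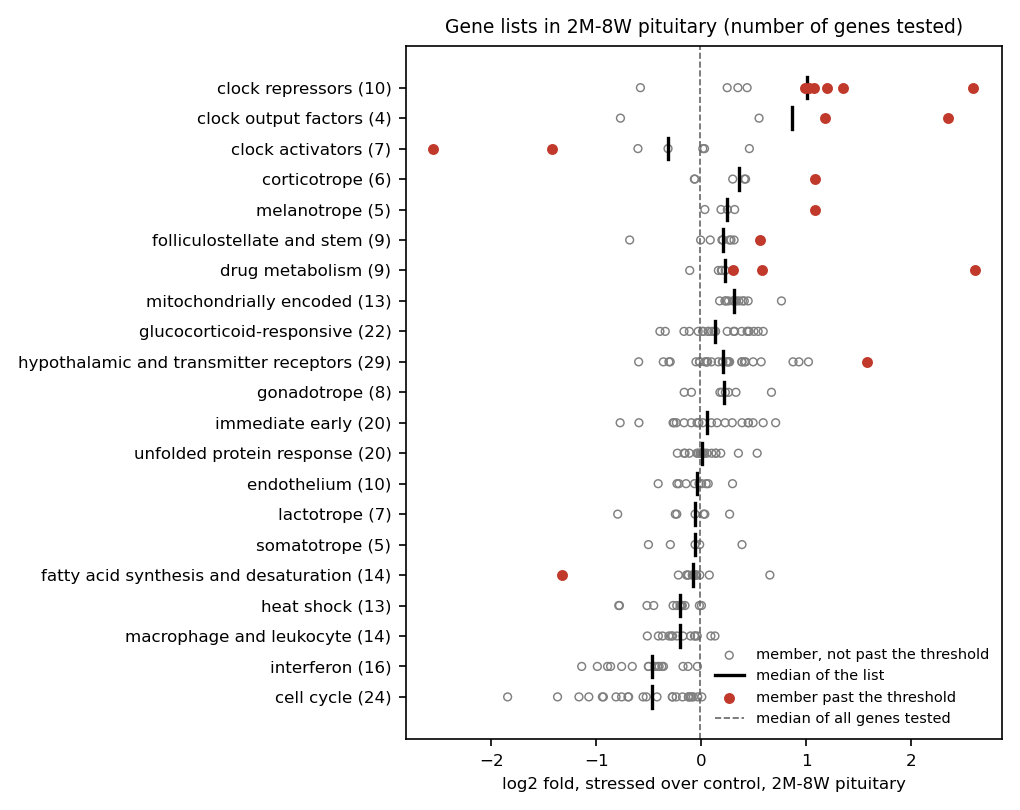
Log2 fold change, CUMS over control, of each tested gene of the listed groups (filled points passed the test, open ones did not), with the group's median (black bar) and the median over all genes tested of -0.01 (dashed line). The clock repressors and output factors lie mostly to the right, and the cell division and interferon genes lie almost wholly to the left without passing.

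The same comparison in the other 3 pituitary sets, which share no library with the 2M-8W set, was read from the mean of their 3 stress effects. Both came from the same fit with a shared estimate of each gene's spread, so the counts are not those of a fully separate repeat. Of the 72 genes, 63 (87.5%) passed in that mean in the same direction, 36 of the 41 that rose (87.8%) and 27 of the 31 that fell (87.1%); 0 passed in the opposite direction. The 63 became 38 without CUMS library 2 of the 2M-8W set. Over all genes tested that mean called 4.63%, 2.15% higher and 2.48% lower. All 10 clock genes and 53 of the 62 others were among the 63. In the single sets 32 of the 72 passed the same way at 2M-12W, 51 at 6M-8W and 23 at 6M-12W, where 0.582, 4.7 and 0.276% of all genes passed; 14 passed in all of them and 14 in none.

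By size, 69 of the 72 changes were larger in the 2M-8W set than in the mean of the others, which a list selected on the 2M-8W values favours. The median of the genes that rose was 0.99 at 2M-8W and 0.63 in the mean of the others, and that of the genes that fell was -0.67 and -0.46. Ciart had a log2 fold change of 2.59 at 2M-8W, and 1.79, 1.93 and 1.66 at 2M-12W, 6M-8W and 6M-12W. In the same order Npas2 had -2.55, then -1.91, -2.34 and -1.93, and Pomc had 1.08, then 0.92, 0.93 and 0.95. Dbp, with 2.35, then 2.58, 1.56 and 1.0, and Nr1d1, with 1.19, then 2.16, 0.85 and -0.14, both had their lowest fold at 6M-12W.

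Outside the clock, Col4a1 had a log2 fold change of -0.81 at 2M-8W, and -0.34, -0.59 and -0.96 at 2M-12W, 6M-8W and 6M-12W. In that order Aplnr had -0.86, then -0.80, -1.50 and -0.85. Scd3 had -1.33, then -0.45, -0.94 and -1.19, and Cyp2a5 had 2.60, then 1.97, 0.98 and 0.95. All 4 thus kept their direction in every set. Hrh3 did not, with 1.58, then 1.10, -0.25 and 0.98. The 9 genes called at 2M-8W and not in the mean of the others were Col19a1, Dio1, Hmgn2, Gstm1, Egln3, Spop, Sorl1, Cdkn2b and Pcdhga2.

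Lists were also counted in the other sets, with no test of the difference between sets. Their mean draws on more libraries than the 2M-8W comparison. It called 4.63% of all genes tested, against 0.424% at 2M-8W, so counts of calls cannot be compared directly. In the mean of the other sets 10 of the 22 glucocorticoid-responsive genes rose and 0 fell (median 0.32), and 9 of the 24 cell division genes fell and 0 rose (median -0.57). The medians of these lists at 2M-8W were 0.13 and -0.47. Of the 10 endothelial markers 4 fell there and 0 rose (median -0.18, against -0.04 at 2M-8W). Of the 16 interferon genes 1 fell there, Cxcl10, a chemokine named after its values were seen (-1.23, edgeR, adjusted p = 0.0322), and the median was 0.14. Fkbp5, which had a fold of 0.31 at 2M-8W, had 0.71 in the mean of the others (edgeR, adjusted p = 7.10e-07). Tbx19, with 0.30 at 2M-8W, had 0.62 there (edgeR, adjusted p = 6.12e-06). For Fkbp5 the gap was widest at 6M-8W, with 154 CPM in CUMS and 65.5 CPM in control libraries. The CUMS and control means were 76.9 and 57.1 CPM at 2M-12W, and 62.6 and 45.2 CPM at 6M-12W. Without CUMS library 1 and control library 1 the fold of Fkbp5 at 2M-8W was 0.57.

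**Figure D5:**
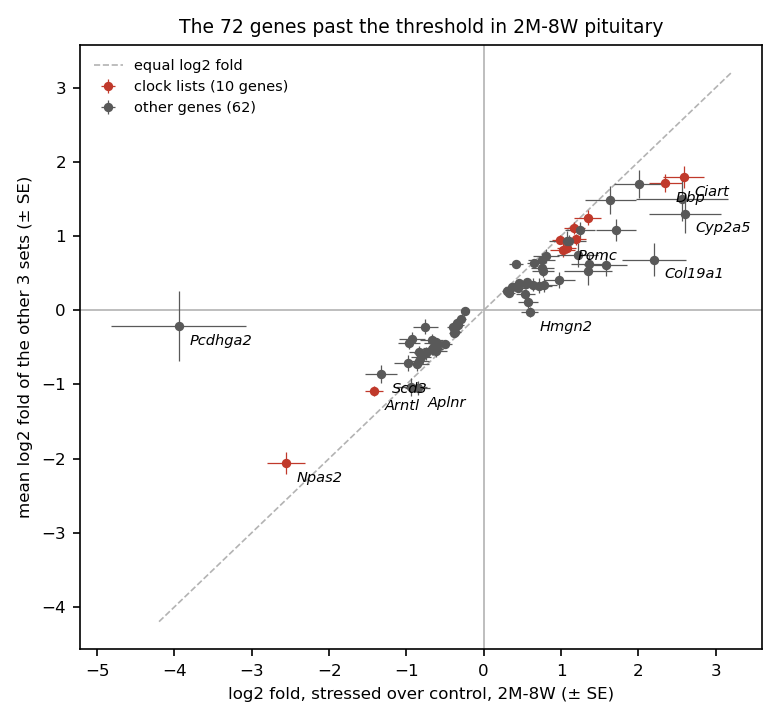
Mean log2 fold change, CUMS over control, of the other 3 pituitary sets (vertical axis) against that of the 2M-8W set (horizontal axis) for the 72 genes that passed at 2M-8W; bars are SE, red points are the 10 clock genes and the dashed line marks equal folds. Points lie in the quadrants of like direction for 71 of the 72 genes, and 69 were larger in size at 2M-8W.

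Whether the stress effect at 2M-8W differed from that of the other sets was tested on the difference itself. Against the mean of the other 3 sets 0 of 17001 genes passed in edgeR, with 790 (4.65%) at an unadjusted p under 0.05 and 5 in DESeq2; without CUMS library 4 of the 2M-8W set 3 passed. Against the 2M-12W set, of the same age, 0 passed in edgeR, with 710 (4.18%) at an unadjusted p under 0.05 and 5 in DESeq2; without control library 1 of the 2M-8W set 1 passed. Of those, Hmgn2 differed from the mean of the others by a log2 fold of 0.63 in DESeq2 (adjusted p = 0.0113) and by 0.62 ± 0.13 in edgeR (adjusted p = 0.505), and Nr1d1 differed from the 2M-12W set by -0.96 in DESeq2 (adjusted p = 0.00668) and by -0.97 ± 0.19 in edgeR (adjusted p = 0.176).

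Against the 6M-8W set, of the same duration and the greater age, 31 genes differed (0.182% of those tested), 9 with the higher effect at 2M-8W (0.0529%) and 22 with the lower (0.129%). Hrh3 averaged 3.32 CPM in CUMS and 1.13 CPM in control libraries at 2M-8W, and 1.30 CPM in CUMS and 1.54 CPM in control libraries at 6M-8W. The difference of the log2 folds was 1.83 ± 0.39 (edgeR, adjusted p = 0.0449). Fkbp5 averaged 76.4 CPM in CUMS and 61.8 CPM in control libraries at 2M-8W, and 154 CPM in CUMS and 65.5 CPM in control libraries at 6M-8W (-0.92 ± 0.19, edgeR, adjusted p = 0.0338). Doc2b, a calcium sensor of exocytosis, averaged 17.8 CPM in CUMS and 11.01 CPM in control libraries at 2M-8W, and 39.9 CPM in CUMS and 6.93 CPM in control libraries at 6M-8W (-1.84 ± 0.30, edgeR, adjusted p = 0.00427). Slc2a13, a myo-inositol transporter, averaged 95.8 CPM in CUMS and 87.7 CPM in control libraries at 2M-8W, and 242 CPM in CUMS and 85.6 CPM in control libraries at 6M-8W (-1.37 ± 0.25, edgeR, adjusted p = 0.0118). The count of 31 moved with single libraries of the 6M-8W set: it was 104 without CUMS library 1, 9 without CUMS library 3, 12 without CUMS library 4, and 15, 19 and 17 without control libraries 1, 2 and 4. Of the 2M-8W libraries, leaving out CUMS library 2 gave 47, CUMS library 4 gave 17 and control library 3 gave 17.

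Against the 6M-12W set, a comparison added after the data were seen, 3 genes differed (0.0176%), all with the higher effect at 2M-8W. Nr1d1 averaged 219 CPM in CUMS and 95.9 CPM in control libraries at 2M-8W, and 178 CPM in CUMS and 196 CPM in control libraries at 6M-12W, a difference of the log2 folds of 1.33 ± 0.19 (edgeR, adjusted p = 0.00169). The others were Ahdc1 (adjusted p = 0.02) and the predicted gene Gm29216 (adjusted p = 0.0426). Age, duration and any batch that follows the sets cannot be told apart here.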

How the data were processed

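Per the labels' protocols, RNA came from a chloroform extraction and was sequenced after NEBNext Ultra II RNA preparation. The aligner, counter, annotation and strand setting are not given in the sources used. The authors deposited whole-number read counts per gene and library for 34745 genes, and FPKM, used here only to compare levels between genes. Of the gene identifiers, 34267 are in GENCODE M21 (GRCm38), 80.8% of them with the same coordinates. No libraries of a group were identical in the 12 pairs compared.

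All 32 pituitary libraries, 8 groups of 4, were fitted together in edgeR 4.0.16 (R 4.3.3, limma 3.58.1): filterByExpr (17001 genes kept), TMM scaling, quasi-likelihood F test, Benjamini-Hochberg adjustment over all genes, threshold 0.05. CPM use TMM-scaled library sizes, and SE is the fold divided by the root of F. Alternatives were DESeq2 1.42.0, RLE factors, no filter, other sample sets, a replicate block and each library left out. The procedure was tested on simulated data.

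Named genes are 17 core genes, the 15 highest and 15 lowest folds called at a mean log2 CPM of at least 1 without predicted genes, called list members and all clock members, the 6 highest and 6 lowest of each difference between sets (or the 5 smallest p), and genes called both at 2M-8W and in the mean of the other sets. A few list members are counted in their lists but not reported singly here. Members and lists were chosen with earlier results of these data known. Promoter sequences are RefSeq's for GRCm38.p6. Libraries held at least 14879376 counts (2M-8W), so counting error of the higher genes is small beside the spread between libraries, whose coefficient of variation was 0.158.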

Additional observations from a re-analysis of the deposited data

Results flagged for a closer look

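In groups of 4 libraries, a value was singled out where its gap to the nearest other library as a share of the whole range of the group exceeded Dixon's 95% critical value for 4 values. Of 242 groups examined 13 did, or 5.37%, and chance alone gives about 1 in 20. In CUMS libraries the gap was 0.907 of the range for Cyp2a5 (library 1 at 6.15 CPM, the others at 4.41 to 4.57) and 0.913 for Per3 (library 1 at 238 CPM, the others at 178 to 183). It was 0.836 for Sorl1 (library 1 lowest, at 246 CPM), 0.976 for Doc2b (library 2 at 27.0 CPM, the others at 14.5 to 14.8), 0.853 for Leo1 (library 2 at 29.2 CPM), 0.927 for Timp3 (library 3 lowest, at 254 CPM) and 0.835 for the predicted gene Gm29216 (library 4 lowest, at 126 CPM). In control libraries the gap was 0.865 for Per2 (library 1 at 30.7 CPM, the others at 18.4 to 20.1), 0.956 for Cry1 (library 1 at 58.5 CPM, the others at 28.6 to 29.9) and 0.856 for Fkbp5 (library 1 at 88.3 CPM, the others at 50.01 to 55.5). It was 0.948 for Cplx3 (library 4 lowest, at 0.203 CPM), 0.889 for Fstl4 (library 4 at 13.7 CPM) and 0.837 for the total count (library 4 lowest, at 15071582).

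Of the 31 genes whose stress effects differed between the 2M-8W and 6M-8W sets, 9 had the higher effect at 2M-8W and 22 the lower. Only named genes are given here, as the log2 fold at 2M-8W minus that at 6M-8W, by edgeR. The difference was positive for Hrh3 (1.83, adjusted p = 0.0449), Hmgn2 (0.72, adjusted p = 0.0471), Atp2a1, a calcium pump (1.23, adjusted p = 0.0193), F2rl1, a protease-activated receptor (0.86, adjusted p = 0.0118), and Rcor2, a corepressor (1.19, adjusted p = 0.0193). It was also positive for Pla2g2c (1.26, adjusted p = 0.0277), Nol4l (0.84, adjusted p = 0.0471) and the predicted gene Gm996 (0.76, adjusted p = 0.0193). For Rcor2 the means were 15.2 CPM in CUMS and 14.2 CPM in control libraries at 2M-8W, and 7.84 CPM in CUMS and 16.5 CPM in control libraries at 6M-8W. The difference was negative for Doc2b (-1.84, adjusted p = 0.00427), Fkbp5 (-0.92, adjusted p = 0.0338), Slc2a13 (-1.37, adjusted p = 0.0118), Nwd2 (-2.28, adjusted p = 0.0332), Tuba8, an alpha-tubulin (-1.47, adjusted p = 0.0193), and Syk, a tyrosine kinase (-1.34, adjusted p = 0.0325). For Syk the means were 3.40 CPM in CUMS and 5.38 CPM in control libraries at 2M-8W, and 5.82 CPM in CUMS and 3.63 CPM in control libraries at 6M-8W. Hsd3b1, a steroid dehydrogenase counted here among ovarian markers, had 4.66 CPM in CUMS and 3.32 CPM in control libraries at 2M-8W. At 6M-8W it had 3.68 CPM in CUMS and 0 CPM in control libraries. Its fitted difference of -8.50 (edgeR, adjusted p = 0.00427) depends on the prior count and is no bound. At 6M-12W Hsd3b1 was at 0 CPM in both CUMS and control libraries. Why whole groups stood at 0 was not tested.

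Against the 6M-12W set, read after the folds were seen, the log2 fold at 2M-8W was higher by 1.33 for Nr1d1 (edgeR, adjusted p = 0.00169), by 1.86 for Ahdc1 (adjusted p = 0.02) and by 1.06 for Gm29216 (adjusted p = 0.0426). Ahdc1 averaged 25.5 CPM in CUMS and 16.2 CPM in control libraries at 2M-8W, and 12.8 CPM in CUMS and 29.7 CPM in control libraries at 6M-12W.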

How the results depend on the processing

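The 72 genes called between CUMS and control pituitaries became 115 in DESeq2, 71 with RLE factors, 60 without the filter, 54 in a fit of the 2-month sets and 57 without CUMS library 1 and control library 1, a choice made after the data were seen. In a fit of the 8 libraries alone 18 were called, with fewer samples behind the spread. Leaving out 1 library gave 41 (without CUMS library 2) to 76. The replicate block gave 53. Correlations between same-numbered CUMS and control libraries ran from -0.11 to 0.34, with 2 of 4 above 0.1. Those of the libraries numbered 3 (0.342) and 1 (0.166) were the largest of any pairing. Of the 4 CUMS libraries, 2 correlated best with their own number. These values cannot decide whether the numbers are pairs, and the main fit does not pair them. None of the 72 turned its direction under the 15 alternatives. Genes called both at 2M-8W and in the mean of the other sets numbered 63, 89 in DESeq2, 51 with the replicate block, 49 without the 2 libraries and 38 to 71 with 1 library left out. Differences from the other sets numbered 0, 5 in DESeq2 and 0 to 3 with 1 library left out; from 2M-12W 0, 5 in DESeq2 and 0 to 1; and from 6M-8W 31, 118 in DESeq2, 29 with the replicate block and 9 to 104; the cause was not tested. Among genes near 0 that did not pass, the sign turned with 1 library left out, where the log2 fold ran from -0.0744 to 0.178 for Drd2, -0.0549 to 0.150 for Rorb, -0.0422 to 0.0662 for Rora, -0.0475 to 0.0288 for Csnk1e and -0.183 to 0.0622 for Fbxl21; for Csnk1e it also turned without the 2 libraries (0.0591). The median of all genes stayed within 0.011 of 0 on the log2 scale. With 4 libraries a side, low genes such as Hrh3, Cplx3 and Cyp2a5 rest on a few CPM.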

Other observations

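Lists not described above held no gene that passed. Of 8 genes of sex steroid receptors and their targets tested, 0 passed in edgeR or DESeq2 (1 at an unadjusted edgeR p under 0.05), 7 had folds below 0 and the median was -0.18. Gal, galanin, which estrogen raises in lactotropes, had 6.41, 25.4, 61.9 and 38.7 CPM in CUMS and 33.8, 32.7, 99.6 and 65.1 CPM in control libraries, with wide and overlapping groups (-0.80 ± 0.54, edgeR, adjusted p = 0.802). Esr1, the estrogen receptor α, had 141, 192, 207 and 179 CPM in CUMS and 242, 215, 181 and 209 CPM in control libraries (-0.23 ± 0.10, edgeR, adjusted p = 0.565), and Pgr, the progesterone receptor, had a log2 fold change of -0.06. The stage of the estrous cycle is not given, and its part in these values was not tested.

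Of 22 ion channel and transporter genes 0 passed in edgeR or DESeq2, 5 had an unadjusted edgeR p under 0.05 (4 higher and 1 lower), and the median was 0.01. The T-type calcium channel gene Cacna1h had 54.5, 51.6, 52.0 and 55.5 CPM in CUMS and 40.5, 46.5, 51.4 and 43.5 CPM in control libraries (0.23 ± 0.10, edgeR, adjusted p = 0.565), and Itpr1, the calcium channel of the endoplasmic reticulum, had 168, 179, 193 and 170.5 CPM in CUMS and 202, 212, 205 and 195 CPM in control libraries (-0.20 ± 0.06, edgeR, adjusted p = 0.195). The groups were separate for both. Of 20 genes of the unfolded protein response 0 passed in edgeR and 1, Herpud1, in DESeq2, with 1 at an unadjusted edgeR p under 0.05 and a median of 0.01. Of 13 genes of glucocorticoid receptor and stress-axis signalling 0 passed in edgeR or DESeq2, with 3 at an unadjusted edgeR p under 0.05 and a median of 0.04. Markers of other cells gave 0 calls in edgeR and DESeq2 as well: 8 of the posterior lobe, 5 of brain and 5 of erythrocytes, with 0, 1 and 0 at an unadjusted edgeR p under 0.05. With CUMS library 1 and control library 1 left out, all 5 erythrocyte markers and all 14 macrophage and leukocyte markers had folds below 0.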
